A study of Mus musculus with 5 samples.

Results

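Long noncoding RNAs (lncRNAs) were followed through the transcriptomes of haematopoietic stem cells (HSCs), the bone marrow cells that renew all blood lineages. The set holds 10 of the 35976 gene rows in the table, chosen by symbol with earlier results of these data known. They are the nuclear RNAs Malat1, Neat1 and Kcnq1ot1, and the host genes of small nucleolar RNAs (snoRNAs) Gas5, Snhg1, Snhg3, Snhg5, Snhg6, Snhg8 and Snhg12. The study asked how the HSC transcriptome differs in mice without Ythdf3, which encodes a cytoplasmic reader of N6-methyladenosine (m6A) in RNA. It compared 2 libraries labelled WT with 3 labelled Ythdf3-/-, all from C57BL/6 mice, untreated as far as the labels say, with 30 sorted cells in each library. The sort took bone marrow cells negative for lineage markers and CD34 and carrying Sca-1, c-kit and CD150. The knockout allele, the age of the mice and any Cre or transgene are not stated in these sources.

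The labels need caution. The series text counts 2 knockout and 3 wild-type samples, the reverse of the sample labels, and places the 5 samples in 5 different mice. Reads of Ythdf3 numbered 20 and 29 where the label was WT, and 2, 339 and 366 where it was Ythdf3-/-. Counts of the targeted gene thus do not follow the labels. They were highest in the libraries labelled Ythdf3-/- 2 and 3 and lowest in that labelled Ythdf3-/- 1. Each library is therefore called labelled WT or labelled Ythdf3-/-, and every direction refers to those labels alone. Total counts ran from 6357862 to 16650134, and 1 count equalled between 0.0601 and 0.157 CPM, the count scaled to each library's total. All 11 HSC markers had counts in every library, but Slamf1, which encodes the CD150 of the sort, had 1 count in the library labelled WT 2 and between 211 and 482 elsewhere. Fgd5 had 2 and 5 counts in those labelled Ythdf3-/- 1 and 3, and the other 9 markers had at least 247 in each library. Markers of other cells were uneven. The 12 erythroid genes summed to 37701 CPM in the library labelled Ythdf3-/- 1 and to between 1973 and 3211 CPM elsewhere. Globin genes made up most of that sum, and Car1, Gata1 and Klf1 were highest in the library labelled WT 2. B lymphoid genes summed to 1671 CPM in that labelled Ythdf3-/- 1, 600.5 CPM in that labelled WT 1 and between 59.4 and 220.8 CPM elsewhere. The 10 mitosis genes summed to 717 CPM in that labelled WT 2 and to between 33.8 and 182.3 CPM elsewhere.

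As background, lncRNAs are transcribed and often spliced like messages but are not translated into a lasting protein. Malat1 collects in nuclear speckles, which store splicing factors, and is a well-known carrier of m6A. Neat1 is the scaffold on which paraspeckles assemble. Kcnq1ot1 is read antisense to Kcnq1 from the paternal chromosome, where it silences neighbouring imprinted genes. Gas5 and the genes of the Snhg series carry snoRNAs in their introns. Box C/D snoRNAs guide methylation of ribosomal RNA and most box H/ACA snoRNAs guide its pseudouridylation. Many of these hosts start with a run of C and T, the 5' terminal oligopyrimidine (TOP) of ribosomal protein messages, and their spliced RNAs are removed by nonsense-mediated decay when ribosomes read them.

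Start regions of the host genes are shown because the pyrimidine start is what the family is known for, and they were searched for a TATA element as well. RefSeq starts (GRCm38.p6, which is mm10) were found for 8 of the 10 genes, and Gas5 has 2 of them. Each line gives the 50 bases before and the 50 bases from the annotated start, 5' to 3' on the gene's strand. Capitals mark a run of at least 6 bases that are all C or T, begins with C and comes within 20 bases of the start.
Gas5, upstream start, chr1:161034551-161034650, plus strand: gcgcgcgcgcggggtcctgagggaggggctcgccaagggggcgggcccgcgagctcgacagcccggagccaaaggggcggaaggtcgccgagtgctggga
Gas5, downstream start, chr1:161035116-161035215, plus strand: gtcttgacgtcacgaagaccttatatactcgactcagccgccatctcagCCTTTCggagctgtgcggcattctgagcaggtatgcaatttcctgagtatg
Snhg1, chr19:8723437-8723536, plus strand: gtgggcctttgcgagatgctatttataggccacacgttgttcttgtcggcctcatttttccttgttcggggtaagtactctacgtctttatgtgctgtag
Snhg3, chr4:132353637-132353736, minus strand: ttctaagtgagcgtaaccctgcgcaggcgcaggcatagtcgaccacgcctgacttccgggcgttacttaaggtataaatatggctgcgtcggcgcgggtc
Snhg5, chr9:88522848-88522947, minus strand: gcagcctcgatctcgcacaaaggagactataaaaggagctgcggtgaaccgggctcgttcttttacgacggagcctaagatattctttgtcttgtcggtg
Snhg8, chr3:123508287-123508386, minus strand: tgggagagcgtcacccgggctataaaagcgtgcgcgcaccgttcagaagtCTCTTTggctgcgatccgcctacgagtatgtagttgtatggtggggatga
Snhg12, chr4:132308628-132308727, plus strand: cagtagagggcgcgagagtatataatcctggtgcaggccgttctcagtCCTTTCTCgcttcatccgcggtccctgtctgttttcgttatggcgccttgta

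A run of this kind was present in 3 of the 8 genes (Gas5, Snhg8 and Snhg12), against 35.3% of all 32851 start windows of the same length. The letters TATAA, searched on both strands, were present in 6 of the 8 genes against 9.26% of all windows. They lay on the gene's strand in Snhg3, Snhg5, Snhg8 and Snhg12 and on the other strand in Gas5 and Snhg1. In Snhg5, Snhg8 and Snhg12 they began 23, 30 and 30 bases before the annotated start, and in Snhg3 at base 23 after it. The windows of Malat1 and Kcnq1ot1 held neither. These are matches of letters and no statement about a factor.

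All 10 lncRNAs were read in all 5 libraries and all 10 passed the filter on low counts. Together they took 0.658% and 1.17% of counts in the libraries labelled WT 1 and 2, and 0.726%, 0.839% and 0.699% in Ythdf3-/- 1, 2 and 3 as labelled. The 95% Wilson intervals, which cover counting error only, ran from 0.654 to 0.662% in the lowest of these libraries and from 1.16 to 1.18% in the highest. Malat1 alone made up between 81.3% and 85.4% of this sum. The set was therefore highest in the library labelled WT 2 and lowest in that labelled WT 1, with the 3 libraries labelled Ythdf3-/- between them.

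Levels of different genes were compared per kilobase of merged exons (GENCODE M21, GRCm38), which is an approximation because the authors' annotation is not stated. Malat1 averaged 979 CPM per kilobase over the 5 libraries and Gas5 214. Next came Snhg8 at 79.2, Snhg5 at 40.9, Snhg3 at 33.8 and Snhg6 at 23.1 CPM per kilobase. Snhg1 at 6.75, Neat1 at 6.46 and Snhg12 at 5.76 were close to each other, and Kcnq1ot1 was last at 1.9 CPM per kilobase of its 93092 bases. Division used the full merged length, 20771 bases for Neat1, and how far reads covered such lengths was not examined. The places of Neat1 and Kcnq1ot1 in this order rest on that divisor. The ranges over libraries kept Malat1 (766 to 1390) apart from Gas5 (165 to 299) and Gas5 apart from Snhg8 (36.9 to 120.0). From Snhg8 downwards each gene's range over libraries overlapped that of its neighbour in this order.

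**Figure D1:**
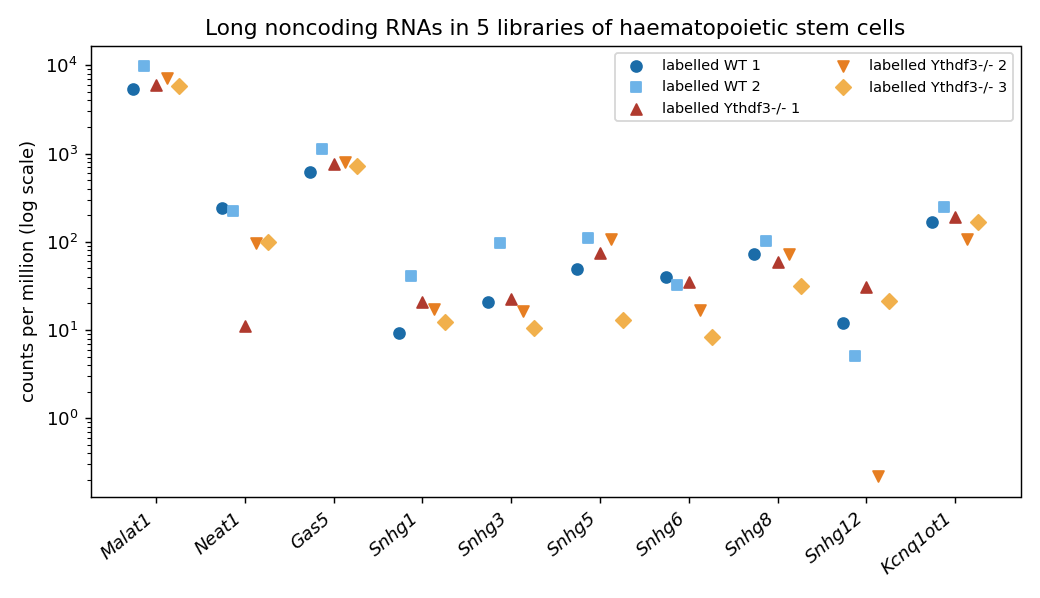
CPM (log scale) of the 10 lncRNAs, 1 point per library, coloured and shaped by the library's label. Malat1 and Gas5 have the smallest ratios of highest to lowest library (1.82 and 1.81), Neat1 is separated by label, and Snhg12 falls to 0.2203 CPM in the library labelled Ythdf3-/- 2.

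No lncRNA of the set passed the test between the labels (edgeR quasi-likelihood, Benjamini-Hochberg adjusted over 11146 genes; 0 of 10, background 0%). None had an unadjusted p under 0.05 either, against 4.85% of all genes tested. The fitted level was lower under the Ythdf3-/- label for 9 of 10, against 52.2% of all genes, with a median log2 fold change of -0.61 against -0.06. Without the library labelled WT 2 the count became 5 of 10 (background 44.5%) and the median turned to 0.04, against 0.215 for all genes. Without those labelled WT 2 and Ythdf3-/- 1 they were 6 of 10 and -0.28, against 0.09. Without those labelled Ythdf3-/- 2 and 3 they were 9 of 10 (background 59.9%) and -0.35, against -0.435. Of the 10, 7 had their highest CPM in the library labelled WT 2, the one with the highest mitosis markers and the 1 count of Slamf1. The part of that library's make-up in the result was not tested. In such samples fewer cells carrying an RNA and less RNA per cell cannot be told apart. Groups did not overlap for 2 of 10, Neat1 and Snhg8, both lower under the Ythdf3-/- label, against 11.0% of genes in that direction and 20.7% in either.

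**Figure D2:**
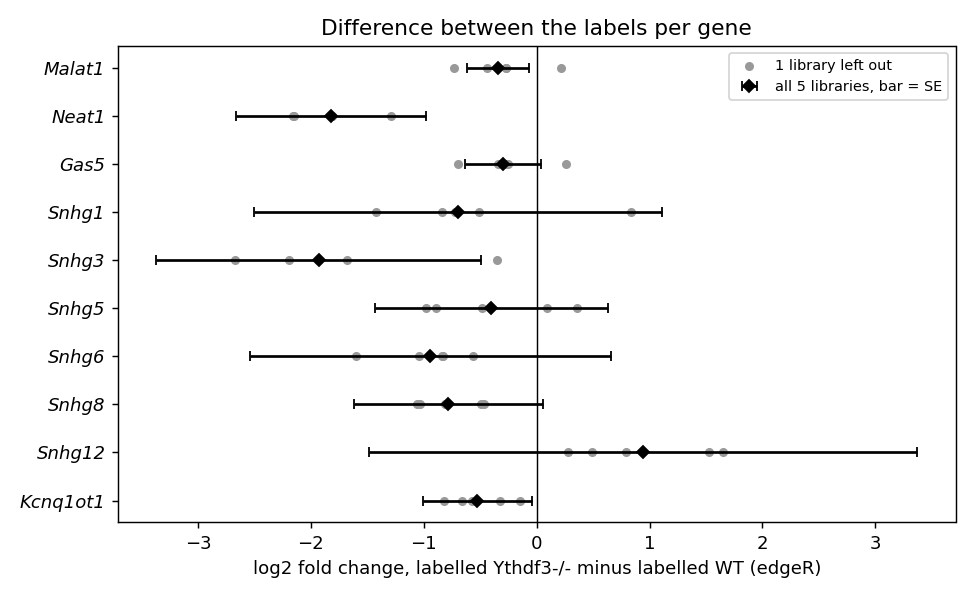
Log2 fold change (labelled Ythdf3-/- minus labelled WT, edgeR) of each lncRNA, as a black diamond with its SE, and as grey points when 1 library is left out. Neat1 stays below 0 in each of these fits, while Malat1, Gas5, Snhg1 and Snhg5 cross 0.

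Malat1 (chromosome 19, 5795690 to 5802672, minus strand) was the third most abundant gene row of the table by mean CPM, rank 3. It stood at 5346 and 9717 CPM in the libraries labelled WT, and at 6054, 7166 and 5905 CPM in the Ythdf3-/- ones as labelled. The lowest and the highest library thus carried the same label, and the 3 libraries labelled Ythdf3-/- lay within that span. Means were 7532 ± 3091 CPM (SD, n = 2) and 6375 ± 689.4 CPM (SD, n = 3), with a log2 fold change of -0.34 (SE 0.28, edgeR adjusted p = 0.9998). Leaving out the library labelled WT 2 turned it to 0.22, and leaving out that labelled WT 1 gave -0.74 (unadjusted p = 0.00437, edgeR adjusted p = 0.3131).

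Neat1 (chromosome 19, 5824708 to 5845478, minus strand) lies upstream of Malat1 on the same strand and had another pattern. Its counts were 3989 and 2000 in the WT-labelled libraries, and 71, 886 and 702 in the Ythdf3-/- libraries 1, 2 and 3 as labelled. In CPM these were 239.6 and 223.0 against 11.2, 97.6 and 100.05, so both libraries labelled WT lay above every library labelled Ythdf3-/-. The means were 231.3 ± 11.7 CPM (SD, n = 2) and 69.6 ± 50.6 CPM (SD, n = 3). This gave a log2 fold change of -1.82 (SE 0.84, unadjusted p = 0.0619, edgeR adjusted p = 0.9831), which did not pass. It was -1.29 without the library labelled Ythdf3-/- 1 and -1.81 without either library labelled WT. With the libraries labelled Ythdf3-/- 2 and 3, which had the high Ythdf3 counts, left out together, it was -4.47 (edgeR adjusted p = 0.3559), a fit that rests on 1 library labelled Ythdf3-/-.

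Neat1 was lowest in the library labelled Ythdf3-/- 1. By summed CPM that library was the highest in erythroid, B lymphoid, monocyte and macrophage, and T and NK cell markers. The part of such cells in the Neat1 value was not tested. Against Malat1 of the same library, a ratio free of depth, Neat1 gave 44.8 and 22.9 reads per 1000 Malat1 reads under the WT label. Under the Ythdf3-/- label it gave 1.84, 13.6 and 16.9. The groups did not overlap by this ratio, but that adds nothing to the CPM values. The gap in Neat1, from 223.0 to 100.05 CPM, is wider than the whole range of Malat1 (highest over lowest 1.82). Gene-level counts do not tell the short and the long Neat1 transcript apart, and only the long one builds paraspeckles. These libraries copy RNA with a poly(A) tail, and how much of the long transcript they hold was not examined.

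Genes of 15 paraspeckle proteins were read beside Neat1, and 0 passed the edgeR test in either direction. Of them 9 were fitted higher and 6 lower under the Ythdf3-/- label, with a median log2 fold change of 0.09. It was -0.145 without the library labelled WT 1 (all genes 0.311) and 0.34 without that labelled WT 2 (all genes 0.215). Groups did not overlap for 5 of the 15, against 20.7% of all genes. Of these 4 were higher under the Ythdf3-/- label, against 9.74% of all genes, and 1 lower, against 11.0%. The most abundant were Hnrnpk, an RNA-binding protein, at 734.9 and 473.3 against 1077, 690.6 and 1097 CPM, and Smarca4, an ATPase of chromatin remodelling, at 240.4 and 103.0 against 412.1, 287.1 and 292.7 CPM. Pspc1, Rbm14, Nono and Matr3 are named here after their values were seen. Pspc1, a core paraspeckle protein, was at 164 and 146 counts for WT labels and at 437, 919 and 596 for Ythdf3-/- labels (log2 fold change 2.60, SE 1.07, edgeR adjusted p = 0.9783). Rbm14, which helps to join paraspeckle particles, had 2 and 6 counts against 85, 667 and 280, and was the 1 gene of the list that DESeq2 called (adjusted p = 0.0034, where DESeq2 called 2.64% of all genes). For Pspc1 and Rbm14, and also for Nono and Smarca4, the order of the labels was opposite to that of Neat1. Matr3 had the same order as Neat1, at 82.6 and 161.8 against 44.5, 67.2 and 57.7 CPM.

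**Figure D3:**
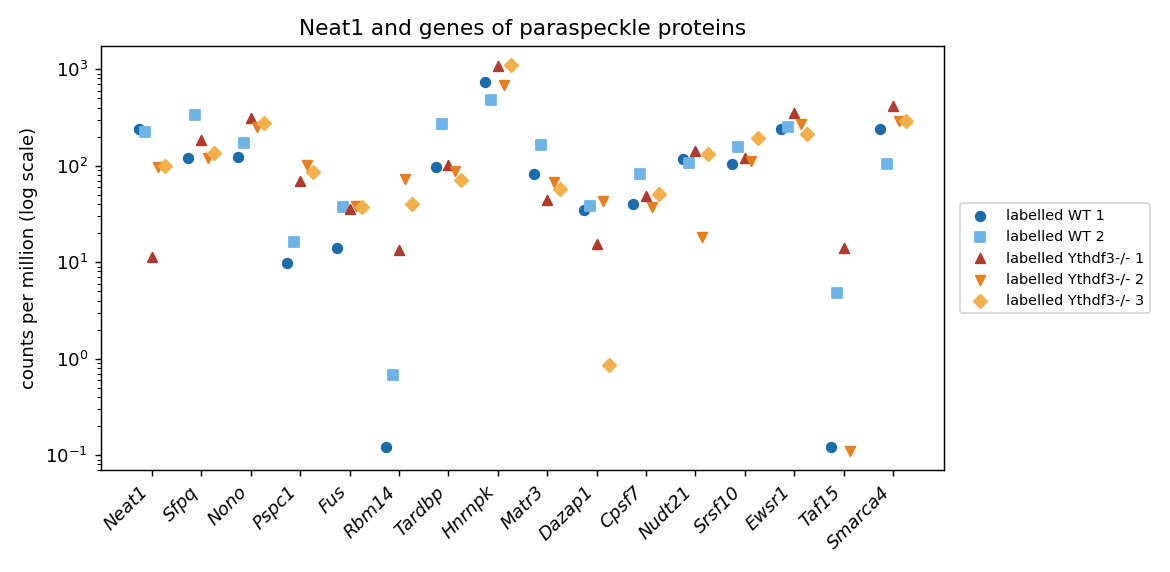
CPM (log scale) of Neat1 and of 15 genes of paraspeckle proteins, 1 point per library by label. Neat1 is higher in both libraries labelled WT, Pspc1 and Rbm14 in all 3 labelled Ythdf3-/-; no point is drawn for Taf15 in Ythdf3-/- 3, where its count was 0.

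Nuclear speckle proteins, the neighbours of Malat1, had 11 of 12 genes fitted lower under the Ythdf3-/- label, against 52.2% of all genes. With edgeR 0 passed. The median log2 fold change was -0.52, against -0.06 for all genes. Without the library labelled WT 2 it was -0.26, against 0.215 for all genes. It was -0.26 without that labelled Ythdf3-/- 1 (all genes -0.0658) and -0.06 without both (all genes 0.0853). The splicing factor genes Srsf2 and Srsf7, the most abundant of them, averaged 1027 and 643.1 CPM under the WT label and 794.1 and 677.2 CPM under the Ythdf3-/- label.

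Kcnq1ot1 (chromosome 7, 143203458 to 143296549, minus strand) is annotated as 1 exon and was the longest RNA of the set. It stood at 167.6 and 249.7 CPM in the libraries labelled WT, and at 189.5, 107.4 and 169.2 CPM in those labelled Ythdf3-/- 1, 2 and 3. The groups overlapped, and the spread over the 5 libraries was small (coefficient of variation, SD over mean, 28.9%). The log2 fold change was -0.52 (SE 0.48, edgeR adjusted p = 0.9998). Kcnq1, the potassium channel gene on the opposite strand, shares 121 exon bases with it and had 1 count in all 5 libraries together.

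Of 12 genes in the imprinted domain around Kcnq1, 10 were tested and 0 passed with edgeR, 7 fitted higher and 3 lower. Cd81 and Tspan32, which encode tetraspanins of the cell surface, were the most abundant, with 790.3 and 427.0 CPM under the WT label and 964.9 and 459.2 CPM under the Ythdf3-/- label. Cdkn1c, a CDK inhibitor of quiescent HSCs that is silenced on the chromosome expressing Kcnq1ot1, had 1578 and 49 counts against 2, 251 and 752. Slc22a18, a membrane transporter gene, had 3 and 7 against 3, 564 and 641, high in the same libraries as Ythdf3. It was called by DESeq2 (DESeq2 adjusted p = 0.0103), which called 2.64% of all genes. Osbpl5, a lipid transfer protein gene, went the other way with 26 and 53 counts against 0, 1 and 0. It was the 1 gene of the 10 tested whose groups did not overlap, against 11.0% of genes in that direction and 20.7% in either. These 3 were named after their values were seen.

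Gas5 (chromosome 1, 161034422 to 161038539, plus strand) was by far the most abundant snoRNA host of the set. It stood at 620.2 and 1124 CPM in the libraries labelled WT and at 762.5, 793.5 and 721.7 CPM in those labelled Ythdf3-/-. As for Malat1, both extremes carried the WT label. The log2 fold change was -0.30 (SE 0.34, edgeR adjusted p = 0.9998), which turned to 0.26 without the library labelled WT 2.

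Gas5 and Malat1 kept an almost fixed proportion. Gas5 gave 11.6 and 11.6 reads per 100 Malat1 reads in the libraries labelled WT, and 12.6, 11.1 and 12.2 in those labelled Ythdf3-/-. Profiles were compared as log2(CPM + 1) centred on each gene's mean, by the root mean square difference over the 5 libraries. Of 9424 other genes with a mean of at least 10 CPM, Malat1 was the nearest to Gas5 (0.0653, where the median gene lay at 1.34). That median is a lenient yardstick. Nearly all of these genes lie below Gas5 (rank 114 by mean CPM) in level, where spread is larger. The next were Dtymk, a thymidylate kinase gene, at 0.0699 and Rpl19, a ribosomal protein gene, at 0.0754. Nearest to Malat1 were Mrps16, a mitochondrial ribosomal protein gene, at 0.0391, Vamp5, a SNARE gene, at 0.0495 and Rbm8a, a core factor of the exon junction complex, at 0.0513, with Gas5 at rank 4. Only 5 libraries enter these differences, and they share each library's depth.

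**Figure D4:**
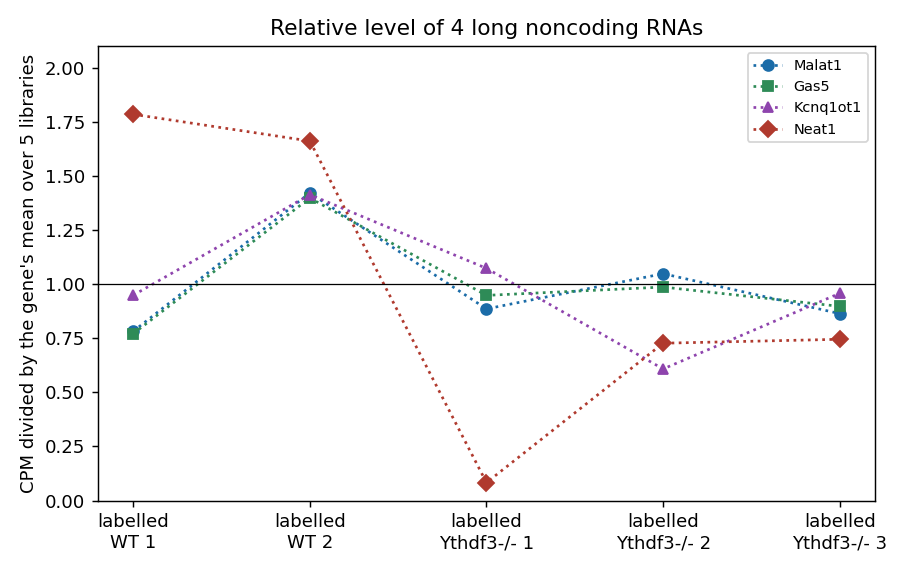
CPM of 4 lncRNAs divided by each gene's mean over the 5 libraries, by library; dotted lines only guide the eye between libraries. Malat1 and Gas5 run together, and Neat1 departs from them in the libraries labelled WT 1 and Ythdf3-/- 1.

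The 6 genes of the Snhg series were read at lower levels and varied more. Summed, they stood at 203.7 and 388.2 CPM in the libraries labelled WT and at 241.6, 229.4 and 97.1 CPM in those labelled Ythdf3-/- 1, 2 and 3. The library labelled Ythdf3-/- 3 was the lowest in Snhg3, Snhg5, Snhg6 and Snhg8, whereas Gas5 had 721.7 CPM there against a mean of 804.4 CPM over the 5 libraries.

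Snhg8 (chromosome 3, 123507552 to 123508404, minus strand) hosts an H/ACA snoRNA. Its counts were 1215 and 916 for the WT labels, and 374, 657 and 221 for the Ythdf3-/- labels. In CPM the groups did not overlap but nearly met, with 72.97 in the library labelled WT 1 and 72.38 in that labelled Ythdf3-/- 2. Its log2 fold change was -0.78 (SE 0.83, edgeR adjusted p = 0.9998).

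Snhg5 (chromosome 9, 88521050 to 88522929, minus strand) hosts a pair of C/D snoRNAs. It stood at 49.2 and 110.7 CPM against 73.9, 106.5 and 13.1 CPM, so that 1 library labelled Ythdf3-/- was far below the others. Its log2 fold change was -0.40 (SE 1.03) and became 0.09 without that library and 0.35 without that labelled WT 2.

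Snhg6 (chromosome 1, 9941959 to 9944118, minus strand) stood at 39.9 and 32.7 CPM against 35.1, 16.6 and 8.27 CPM. The library labelled Ythdf3-/- 1 was level with those labelled WT and the other two were lower. This gave a log2 fold change of -0.94 (SE 1.60). It shares 127 exon bases with Mcmdc2 on the opposite strand, whose own row had between 26 and 201 counts.

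Snhg1 (chromosome 19, 8723475 to 8726443, plus strand), host to 8 annotated snoRNAs, stood at 9.13 and 41.0 CPM against 20.6, 17.1 and 12.4 CPM. Again both extremes carried the WT label. The log2 fold change was -0.70 (SE 1.81) and turned to 0.83 without the library labelled WT 2.

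Snhg12 (chromosome 4, 132308623 to 132311024, plus strand) was the 1 gene of the set fitted higher under the Ythdf3-/- label. Its counts were 200 and 45 for the WT labels, and 195, 2 and 149 for Ythdf3-/- 1, 2 and 3 as labelled. With highest over lowest at 139 it was the most uneven of the 10. Its log2 fold change of 0.94 had an SE of 2.43.

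Snhg3 (chromosome 4, 132348014 to 132353686, minus strand) stood at 20.5 and 96.6 CPM against 22.5, 16.5 and 10.5 CPM. The library labelled WT 2 was apart, and the other 4 lay between 10.5 and 22.5 CPM. The log2 fold change was -1.93 (SE 1.44, edgeR adjusted p = 0.9998) and became -0.35 without the library labelled WT 2. Adjusted p was 0.9998 for each of Snhg1, Snhg5, Snhg6 and Snhg12 as well (edgeR).

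What the hosts share beyond their names is the snoRNA inside them. Within the RefSeq spans of the 7 hosts lie 26 annotated snoRNAs, and 10 of these have a row of their own in the table. Libraries made this way copy RNA with a poly(A) tail, which mature snoRNAs lack, and 3 of the 10 rows had no counts. Together the 10 rows summed to 13 and 459 counts (WT 1 and 2 as labelled) and to 14, 3 and 75 (Ythdf3-/- 1, 2 and 3 as labelled). Of the 459 counts in the library labelled WT 2, 424 belonged to the H/ACA pair in Snhg3. For Snora73b these were 3 and 261 (labelled WT) against 1, 1 and 47 (labelled Ythdf3-/-), and for Snora73a 1 and 163 against 0, 0 and 0. Snhg3 and both of its snoRNA rows were thus highest in the same library. A share of 0 counts in the library labelled Ythdf3-/- 1 allows up to 0.472 CPM (3 counts).

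From the hosts, 4 snoRNAs are shown to tell the classes apart (GENCODE M21 transcripts, GRCm38). Capitals mark, in the C/D snoRNAs of Gas5 and Snhg6, the letters TGATGA of box C and CTGA of box D, and in the H/ACA pair of Snhg3 the ACA box near the 3' end.
Snord47 in Gas5, chr1:161038082-161038158, plus strand: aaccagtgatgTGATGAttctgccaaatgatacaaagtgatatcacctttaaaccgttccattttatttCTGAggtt
Snord87 in Snhg6, chr1:9942463-9942549, minus strand: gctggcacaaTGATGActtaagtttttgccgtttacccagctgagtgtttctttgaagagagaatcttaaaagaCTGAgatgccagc
Snora73a in Snhg3, chr4:132352775-132352979, minus strand: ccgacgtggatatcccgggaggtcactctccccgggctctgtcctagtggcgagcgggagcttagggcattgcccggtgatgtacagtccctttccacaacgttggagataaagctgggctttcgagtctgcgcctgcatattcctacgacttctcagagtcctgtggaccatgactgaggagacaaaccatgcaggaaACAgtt
Snora73b in Snhg3, chr4:132352322-132352526, minus strand: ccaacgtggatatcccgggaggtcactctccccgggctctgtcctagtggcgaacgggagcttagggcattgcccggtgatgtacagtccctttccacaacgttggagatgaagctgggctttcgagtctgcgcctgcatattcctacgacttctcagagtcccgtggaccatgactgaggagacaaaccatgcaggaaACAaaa

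Snora73a and Snora73b differ at 7 of 205 bases, so reads could be split between them and their separate counts are uncertain. Snora73a also shares 159 bases with annotated exons of Snhg3, and Rcc1, a gene for a chromatin-bound exchange factor of Ran, shares 135 exon bases with Snhg3 on the same strand. Rcc1 had 20 and 110 counts against 3, 0 and 0, again highest in the library labelled WT 2. How the counting treated reads in shared exons is not stated in these sources. Snord47 in Gas5, in contrast, had 0, 1, 0, 1 and 0 counts where Gas5 itself had between 4848 and 10326.

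Other noncoding snoRNA hosts, 13 rows of a list of 14, served as the comparison, and 10 were tested. With edgeR 0 passed, 5 were fitted higher and 5 lower, and the median log2 fold change was -0.05, against -0.61 for the 10 lncRNAs and -0.06 for all genes tested. This difference became smaller without the library labelled WT 1. It was lost, as labelled, without WT 2, without Ythdf3-/- 3, without Ythdf3-/- 2 and 3 together, and with the replicate block. Without the library labelled WT 1 the medians were -0.58 for these hosts and -0.86 for the 10 lncRNAs, without that labelled WT 2 they were 0.12 and 0.04, and without that labelled Ythdf3-/- 3 they were -0.57 and -0.50. With the replicate block they were -0.51 and -0.54. Without those labelled Ythdf3-/- 2 and 3 together they were -0.35 and -0.35, against -0.435 for all genes. Snhg20, the most abundant, stood at 307.0 and 386.5 CPM against 304.8, 232.5 and 360.9 CPM, above every Snhg gene of the set in every library. Snhg15 stood at 33.1 and 100.1 against 54.3, 128.7 and 92.5 CPM. Zfas1, a host antisense to Znfx1, had 879 and 1154 counts against 108, 243 and 205. Its log2 fold change was -2.00 (SE 1.03, edgeR adjusted p = 0.9831). It was the 1 of 10 tested genes whose groups did not overlap, against 11.0% of genes in that direction and 20.7% in either. It was named after its values were seen.

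Among 24 protein-coding snoRNA hosts, most of them ribosomal protein and translation factor genes, 0 passed with edgeR. Under the Ythdf3-/- label 22 were fitted lower, against 52.2% of all genes. The median log2 fold change, -0.57, moved to -0.10 when the library labelled WT 2 was left out and to -0.95 without that labelled WT 1. For all genes the medians of those fits were 0.215 and 0.311, in that order. Hspa8 and Rps3, the most abundant, averaged 2220 and 2178 CPM under the WT label and 2517 and 2264 CPM under the Ythdf3-/- label. Of 12 tested genes of snoRNP proteins, which package snoRNAs, 0 passed with edgeR, 6 were fitted higher and 6 lower; Nop56, a C/D core protein gene and itself a snoRNA host, averaged 470.9 and 480.2 CPM, and Ruvbl1, an ATPase of snoRNP assembly, 265.0 and 434.6 CPM. Of 10 genes of nonsense-mediated decay, 8 were fitted lower, against 52.2% of all genes, and 0 passed. Their median log2 fold change was -0.25. It was 0.07 without the library labelled Ythdf3-/- 1, -0.07 without WT 2 and -0.11 without Ythdf3-/- 2. It was -0.45 without WT 1 and -0.61 without Ythdf3-/- 3, as labelled. In the same order, the medians of all genes were -0.0658, 0.215, -0.102, 0.311 and -0.0971. Upf1, the helicase at the centre of this decay, averaged 74.3 and 68.4 CPM, and Smg6, its endonuclease, 100.5 and 29.1 CPM.

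Other lncRNAs gave 14 tested genes of 26 rows, of which 7 were fitted higher, 7 lower and 0 passed (edgeR). The most abundant were 2900097C17Rik, at 143.1 and 174.3 against 42.3, 112.6 and 88.4 CPM, and Tug1, at 109.4 and 115.4 against 60.4, 75.7 and 64.7 CPM. In both, as in Neat1, every library labelled WT lay above every library labelled Ythdf3-/-. Groups did not overlap in this direction for 3 of the 14 and in the other for 0, against 11.0% and 9.74% of all genes. Of 15 tested genes for writers, readers and erasers of m6A, 11 were fitted lower, against 52.2% of all genes, and 0 passed. Their median log2 fold change was -0.37, and it turned to 0.14 without the library labelled WT 2 (all genes 0.215). It stood at -0.10 without those labelled WT 2 and Ythdf3-/- 1 (all genes 0.0853). Without that labelled WT 1 it was -0.77 (all genes 0.311). The readers Hnrnpa2b1 and Hnrnpc, the most abundant, averaged 559.6 and 339.0 CPM under the WT label and 517.2 and 372.7 CPM under the Ythdf3-/- label.

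Spread over the 5 libraries, label aside, was read against genes of similar level, those tested whose mean CPM lay within a factor of 2. Gas5 had a coefficient of variation of 23.7%, where the median of 269 such genes was 30.8%. Kcnq1ot1 stood at 28.9% against 44.6%, Snhg8 at 37.9% against 64.8% and Snhg6 at 50.6% against 92.3%. Snhg1 stood at 62.5% against 101.0%. These 5 were steadier than the median gene of their level. On the other side, Neat1 varied by 71.3% against 49.4% and Snhg3 by 107.0% against 84.7%, and of the genes near them 81.3% and 73.4% varied less. Malat1 varied by 25.4% against 14.7%, and 8 of the 10 genes of its level varied less. Snhg5 (57.8% against 64.0%) and Snhg12 (88.9% against 116.0%) were below the median of their level as well.

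**Figure D5:**
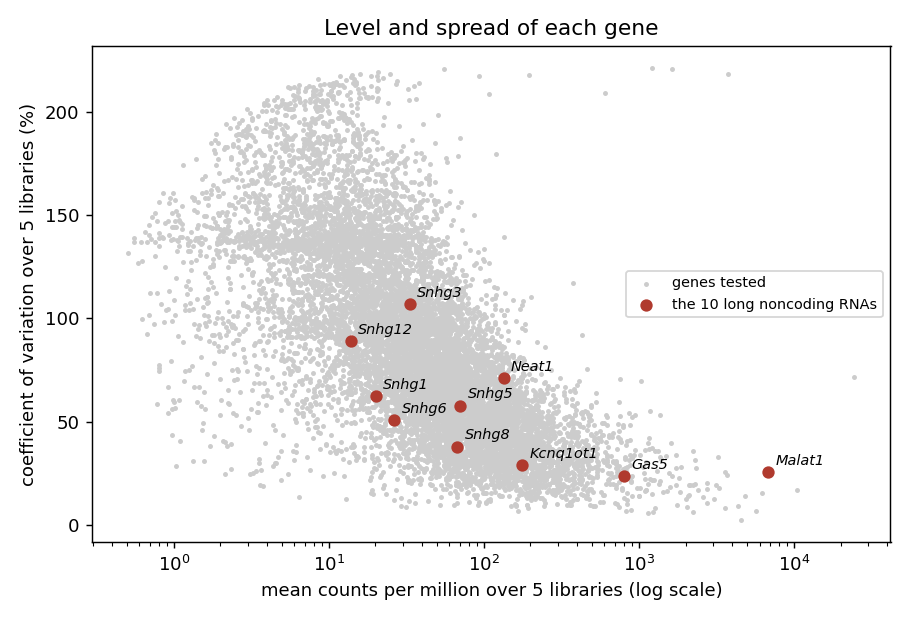
Coefficient of variation over the 5 libraries (%) against mean CPM (log scale) for all genes tested (grey) and the 10 lncRNAs (red). Spread falls with level across genes; Malat1, Neat1 and Snhg3 lie above most genes of their level, and Snhg1, Snhg6 and Snhg8 below most.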

How the data were processed

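RNA of 5 libraries of 30 HSCs was measured by Smart-seq2, which copies polyadenylated RNA at full length and keeps neither strand nor molecule identifiers, and was read as paired 150-base reads, per the labels' protocols. The authors deposited 1 table of raw counts per gene symbol. HISAT2 2.2.1, HTSeq 0.12.4 and mm10 are named in the submitters' processing notes; the annotation, strand setting and treatment of multiply mapped reads: not given in the sources used here. CPM was computed here from each library's total.

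Counts were tested with edgeR 4.0.16 (R 4.3.3; default expression filter, TMM scaling, robust quasi-likelihood, no covariate) over all genes, and SEs were derived from the F statistic. The members and lists were chosen with earlier results of these data known. Genes named were the 10 lncRNAs, Ythdf3, the 2 most abundant of each list and the 3 nearest in profile to Malat1 and Gas5. Others were added after their values were seen: those marked in the text, Slamf1 and Fgd5, snoRNAs of the hosts, and Kcnq1, Mcmdc2 and Rcc1, which share exons with a member. Alternatives were other scalings and filters, DESeq2 1.42.0, limma 3.58.1 (voom), a replicate block and left-out libraries. Per-kilobase levels used GENCODE M21, and starts used RefSeq.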

Additional observations from a re-analysis of the deposited data

How the results depend on the processing

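No lncRNA of the 10 passed under any of the 15 alternatives, with adjusted p from 0.3131 upwards, and Neat1, Snhg3, Snhg6, Snhg8 and Kcnq1ot1 were fitted lower under the Ythdf3-/- label in each of them. Over all genes, 259 passed with DESeq2, 21 with no filter, 7 without the libraries labelled Ythdf3-/- 2 and 3, and between 0 and 1 with 1 library left out; the other alternatives gave 0, as in the fit of all libraries.

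Leaving out 1 library at a time gave log2 fold changes from -0.74 to 0.22 for Malat1, -2.16 to -1.29 for Neat1, -0.70 to 0.26 for Gas5, -1.42 to 0.83 for Snhg1, -2.67 to -0.35 for Snhg3, -0.98 to 0.35 for Snhg5 and 0.27 to 1.65 for Snhg12. Snhg6, Snhg8 and Kcnq1ot1 ran from -1.60 to -0.56, -1.06 to -0.46 and -0.82 to -0.15. The sign turned without the library labelled WT 2 for Malat1 (0.22), Gas5 (0.257), Snhg1 (0.832) and Snhg5 (0.354), and without that labelled Ythdf3-/- 3 for Snhg5 (0.0875). Without those labelled WT 2 and Ythdf3-/- 1 it turned for Malat1 (0.23), Gas5 (0.229), Snhg1 (0.631), Snhg5 (0.221) and Snhg12 (-0.221). With limma voom it turned for Snhg1 (0.11) and Snhg12 (-0.84). The cause was not tested. Fits that drop a WT-labelled library keep 1 such library, assumed to vary like the others.

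With the replicate block, Snhg5 (0.188) and Snhg12 (-1.50) turned, Neat1 stood at -2.87, and 0 genes and 0 of the 10 passed. In that fit the library labelled Ythdf3-/- 3 has no WT-labelled partner, so it adds nothing to the difference between labels. Little is then left to estimate the error from, and the 0 carries little weight. The numbers gave no sign of pairing, with correlations of same-numbered deviations of -0.0043 and 0.0094 for the 2 pairs. At these depths a count of 0 allows up to 0.472 CPM in the library with the lowest total. The 2 counts of Snhg12 came from the library labelled Ythdf3-/- 2, which was not that library.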
